A study of Mus musculus with 2 samples.

Results

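Intronic SRCAP regions were places inside genes, but away from promoters and exons, where CUT&Tag against YPet-tagged SRCAP gave a peak in unique sequence. To find them, the peak lists of both replicates were pooled and overlapping peaks were merged, which gave 15653 nuclear regions. Of these, 7205 had a midpoint over 2 kb from every annotated transcription start site (TSS), 3354 of those lay inside a transcript, and 2888 of those lay in no exon. The last step kept the 2120 regions with under 50% of their bases soft-masked, the mark of repeat sequence in the assembly, which was 13.5% of all merged regions. Of the 2120 intronic regions, 165 were covered by peaks of both replicates, 509 by replicate 1 only and 1446 by replicate 2 only.

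Both samples were SYAT mouse embryonic stem cells (mESC), in which both alleles of SRCAP carry YPet, a yellow fluorescent protein, fused to a degron that auxin activates. SYAT is a sorted population of 1 such clone of CGR8 cells that was given the plant receptor OsTir1, so all values come from 1 clone. The cells were in the control condition, with auxinole to prevent basal degradation and in medium with serum and LIF, and no auxin was added. There was 1 group with 2 replicates of 200000 cells, and auxin-treated cells and control libraries were not analysed here. The study describes its replicates in general as independent cultures, without naming CUT&Tag there. The lists held 6158 and 12958 peaks, of which 6 in each were mitochondrial and left out. The files give no read numbers, so depth is unknown, and a region without a peak in 1 replicate cannot be read as a region without SRCAP there.

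SRCAP is the ATPase of a remodeler that places the histone variant H2A.Z into nucleosomes, and it is known best from active promoters. H2A.Z also marks enhancers, many of which lie in introns, where transcription factors such as OCT4 (gene Pou5f1) and SOX2 bind in stem cells. A first intron often carries regulatory sequence of its gene, and some introns hold CpG islands, stretches rich in CG dinucleotides that can act as start sites.

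The sequences of 6 intronic regions covered in both replicates are shown first, because they hold the kinds of sequence on which the values below turn. Each is the 300 bp around the midpoint, from mm10, on the + strand, named by the host gene, with capitals for matches to the 18 motifs that were searched on both strands. Arid1b held a CpG-rich window with a GC box (GGGCGG or its complement) and a core of the CTCF motif. Dock9 held 3 GC boxes, and Gm17655 and Magi1 held the octamer (ATGCAAAT) that OCT4 recognises, the former with 2 CCAAT boxes. Pde8b and Tiam2 were built of tandem copies of a short unit, and their windows matched none of the motifs.
Arid1b, chr17:5189866-5190165: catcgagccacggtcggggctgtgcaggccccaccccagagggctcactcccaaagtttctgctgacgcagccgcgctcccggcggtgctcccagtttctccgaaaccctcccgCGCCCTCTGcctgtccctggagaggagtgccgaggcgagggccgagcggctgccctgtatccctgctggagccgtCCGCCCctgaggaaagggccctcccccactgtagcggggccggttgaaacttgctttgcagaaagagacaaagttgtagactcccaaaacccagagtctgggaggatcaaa
Dock9, chr14:121731877-121732176: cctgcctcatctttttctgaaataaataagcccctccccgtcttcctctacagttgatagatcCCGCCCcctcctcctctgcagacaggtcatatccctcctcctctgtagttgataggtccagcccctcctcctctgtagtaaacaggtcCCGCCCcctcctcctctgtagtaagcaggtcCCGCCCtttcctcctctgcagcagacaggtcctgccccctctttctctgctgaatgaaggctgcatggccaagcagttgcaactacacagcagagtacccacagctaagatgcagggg
Gm17655, chr5:110058081-110058380: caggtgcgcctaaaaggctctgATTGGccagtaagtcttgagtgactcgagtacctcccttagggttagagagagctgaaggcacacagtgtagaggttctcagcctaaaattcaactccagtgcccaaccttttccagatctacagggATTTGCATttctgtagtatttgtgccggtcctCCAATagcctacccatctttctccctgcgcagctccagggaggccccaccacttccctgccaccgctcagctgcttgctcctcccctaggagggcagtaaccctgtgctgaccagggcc
Magi1, chr6:93757386-93757685: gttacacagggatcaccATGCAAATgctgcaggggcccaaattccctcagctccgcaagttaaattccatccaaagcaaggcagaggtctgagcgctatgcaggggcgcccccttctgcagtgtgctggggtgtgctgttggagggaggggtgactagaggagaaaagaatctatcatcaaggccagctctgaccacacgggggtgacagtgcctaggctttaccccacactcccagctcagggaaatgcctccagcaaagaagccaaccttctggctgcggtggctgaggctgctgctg
Pde8b, chr13:95215798-95216097: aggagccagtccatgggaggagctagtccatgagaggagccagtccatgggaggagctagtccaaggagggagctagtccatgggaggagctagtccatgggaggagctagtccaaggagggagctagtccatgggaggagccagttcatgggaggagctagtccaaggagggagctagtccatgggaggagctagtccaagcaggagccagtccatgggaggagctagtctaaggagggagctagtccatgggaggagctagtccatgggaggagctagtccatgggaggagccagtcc
Tiam2, chr17:3353028-3353327: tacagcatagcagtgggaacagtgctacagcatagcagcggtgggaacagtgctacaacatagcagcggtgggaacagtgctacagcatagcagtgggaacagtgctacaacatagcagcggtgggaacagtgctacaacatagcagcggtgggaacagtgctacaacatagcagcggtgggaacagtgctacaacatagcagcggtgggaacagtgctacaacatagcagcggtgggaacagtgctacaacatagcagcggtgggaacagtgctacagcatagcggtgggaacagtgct

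The label of unique sequence was checked against the assembly, since it came only from the soft-masking. In 1642 intronic regions, 77.5%, no 31-base word occurred more than once in the assembly, and in 38 regions, 1.79%, at least 50% of the words did. Among intronic regions of the soft-masked class, the latter share was 62.9%. A second check counted internal repeats, windows in which at least 25% of the 12-base words recurred in the same 300 bp. Of the intronic regions 38 were such windows, 1.79%, against 0.682% of all eligible intron windows of this length, 1.19% of intergenic regions in unique sequence and 27.9% of soft-masked intronic regions. The label therefore held in full for 77.5% of regions and failed by the 50% cut for a few, with the rest in between. At least 1 repeated 31-base word was held by 27.9% of regions covered in both replicates. The share was 19.6% of those in replicate 1 only and 23.0% of those in replicate 2 only. Of the 38 internal repeats, 9 were covered in both replicates, 23.7%, against 7.49% of the other intronic regions. The difference was 16.2 points (Newcombe interval 5.43 to 31.7). Of the 38, 4 were among the 20 strongest regions described below.

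How often both replicates covered an intronic region was the first question, because it tells how far such a region can be relied on. Of the 2120 intronic regions, 165 were covered in both, 7.78% (95% Wilson interval 6.72 to 9.0%), against 21.9% of all merged regions. Regions within 1 kb of a TSS, called promoter regions here, reached 29.7%, a difference of intronic minus promoter regions of -21.9 points (95% Newcombe interval -23.4 to -20.3). Intergenic regions in unique sequence, selected by the same TSS distance and masking, reached 9.58%, a difference of -1.79 points (-3.50 to -0.0927). Intervals cover counting error only, and regions of 1 library are not replicates.

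Read from each list alone, 674 intronic regions had a replicate 1 peak, of which 24.5% also had a replicate 2 peak. In the longer list, 1611 had a replicate 2 peak, and 10.2% of them also had a replicate 1 peak. Intergenic regions gave 30% and 12.3%. The difference between intronic and intergenic regions was -5.47 points (-10.2 to -0.717) from replicate 1 and -2.10 points (-4.28 to 0.0855) from replicate 2, so its interval reached 0 in the second list. The intronic regions made up 11% and 12.4% of the regions of the lists, a mean of 11.7% ± 1.04 (SD, n = 2).

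The score of a peak is 10 times its −log10 q-value, cut to a whole number, with a minimum of 13 in both lists, so 13 stands for a q-value of 0.05. Intronic regions had a median score of 23 (quartiles 16 and 35) in replicate 1 and 25 (19 and 37) in replicate 2. Promoter regions had medians of 35 and 42, and intergenic regions of 24 and 28. A score of 50 or more was reached by 48 intronic regions in replicate 1, 7.12%, and by 185 in replicate 2, 11.5%, while promoter regions reached it in 25.7% and 38.8%. The median peak width in intronic regions was 292 and 312 bp, against 350 and 402 bp in promoter regions.

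Since weak peaks recur less often, coverage in both replicates was also read within bands of the score. Among replicate 1 peaks with a score of 50 or more, 29 of 48 intronic regions, 60.4% (46.3 to 73.0%), were covered in both, against 88.5% (86.2 to 90.5%) of promoter regions. Among replicate 2 peaks of that score the shares were 33.5% (27.1 to 40.6%) and 55.2% (53.3 to 57.1%). At scores of 13 to 19 they were 8.67% and 43.3% in replicate 1, and 1.72% and 9.24% in replicate 2. In every band of both lists the intronic share lay below the promoter share with intervals that did not overlap. Intronic and intergenic regions had overlapping intervals in all bands of both lists, which does not show that their shares were equal. At scores of 13 to 19 in replicate 1 they were 8.67% (5.49 to 13.45%) and 17.1% (11.9 to 23.9%). The intronic share was the higher at scores of 30 to 49 in both lists and the lower in all other bands.

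**Figure D1:**
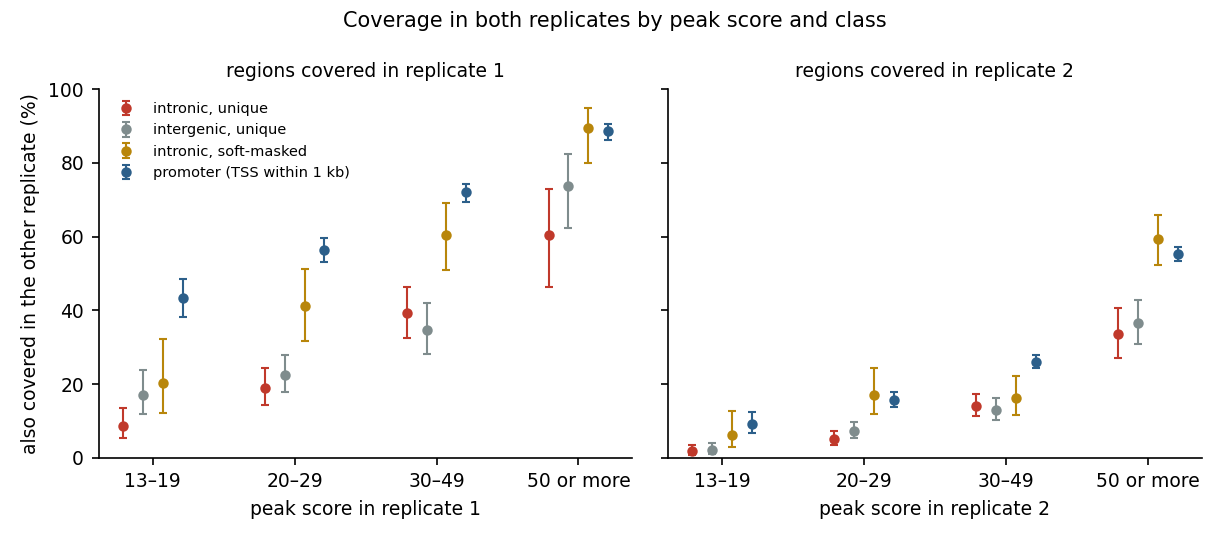
Share of regions of 1 replicate that were also covered in the other, by peak score (bands on the x axis) for regions of replicate 1 (left) and replicate 2 (right). Points are shares and bars 95% Wilson intervals. Intronic regions in unique sequence rise from 8.67% to 60.4% on the left and from 1.72% to 33.5% on the right, and lie below promoter regions in each band.

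In the 165 intronic regions covered in both, the median score was 34 in replicate 1 and 43 in replicate 2. The order by score was only weakly shared, with a Spearman rho of 0.135 over these 165 regions and, after log10 transformation, a Pearson r of 0.243. These values describe 2 libraries of the same clone and are across regions, which are not independent replicates. Peaks of both replicates overlapped by at least 50% of both their widths in 125 of the 165, 75.8%.

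The strongest intronic regions covered in both were taken as the 20 with the best worst rank in the 2 lists. Arid1b, which encodes a DNA-binding subunit of the BAF remodeler, had a score of 82 in replicate 1 and 260 in replicate 2, the highest score of an intronic region in that list. Its region lay at chr17:5189627-5190405, 77906 bp from the nearest TSS, in an intron of 115803 bp, with a GC content of 64.7%. Dock9, an exchange factor for the GTPase Cdc42, had scores of 55 and 145 at chr14:121731697-121732357 in a first intron. Gm17655, a protein-coding gene model, had scores of 104 and 113 at chr5:110058092-110058369. Both replicates placed these 3 regions above a score of 50.

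Pde8b, a phosphodiesterase of cyclic AMP, had the highest replicate 1 score of any intronic region, 169, with 123 in replicate 2, at chr13:95215783-95216113. In its window 83.4% of the 12-base words recurred, and 57.5% of the 31-base words of the region occurred more than once in the assembly. Tiam2, an exchange factor for the GTPase Rac, had scores of 140 and 84 at chr17:3352999-3353356, with 96.2% and 81.1% by the same measures. Dclk2, a doublecortin-like kinase, had 99 and 81 and a recurring share of 88.6%. Slc2a10, which encodes a glucose transporter, had 81 and 73 and a recurring share of 88.2%. These 4 of the 20 strongest regions were internal repeats. Among the 165 regions covered in both, from which the 20 were taken, 9 were, 5.45%, and among all 2120 intronic regions 38 were. Of the other 16 regions, 4 held 31-base words found more than once, and in the remaining 12 the share was 0%. Gm17655 held 10.5% and Magi1 6.14% of such words. E030030I06Rik had scores of 155 and 132, with 30.3% of its words found more than once and 49.2% of its bases soft-masked, just inside the limit. Gm47283 on chromosome Y had 89 in both replicates, with 70.5% of its words found more than once.

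The other 11 regions of the 20 scored between 38 and 69 in replicate 1 and between 65 and 142 in replicate 2. Kctd16, an auxiliary subunit of GABA-B receptors, had 69 and 142, and Magi1, a scaffold of cell junctions, had 63 and 76. Immp2l, a peptidase of the inner mitochondrial membrane, had 44 and 92, in an intron of 517820 bp, with 2 overlapping ETS letters in its window. Zfp423 and Zbtb7c, both zinc finger factors, had 59 and 66, and 48 and 65. Klhl2, an adaptor of a cullin ubiquitin ligase, had 41 and 68, and Sar1b, a GTPase of COPII vesicles, had 40 and 66. St3gal3, a sialyltransferase, had 48 and 66, and Lrch2, a leucine-rich repeat protein, had 38 and 80, with 3 KLF letters in its window. The noncoding genes Gm38399 and Gm26733 had 61 and 106, and 41 and 78. In all 11 regions both replicates had 1 peak each.

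**Figure D2:**
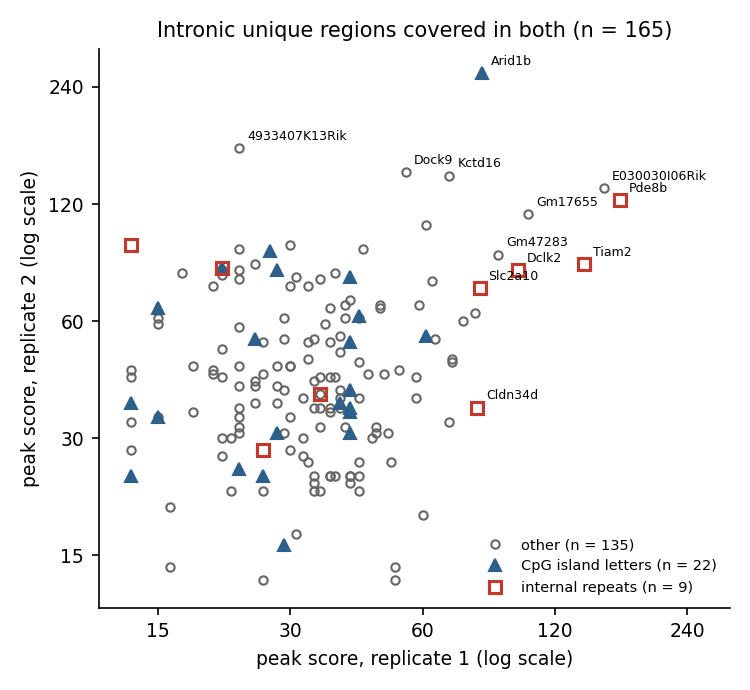
Peak scores of the 165 intronic regions covered in both replicates, replicate 1 on the x axis and replicate 2 on the y axis, both log scales. Triangles mark the 22 windows with CpG island letters and squares the 9 internal repeats, 1 region being both. Arid1b stands highest in replicate 2, and Pde8b and Tiam2, both internal repeats, are among those farthest right.

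The strongest regions of a single replicate were lower. In replicate 1 only, Nell2, Anks1b and Mettl25 led with scores of 72, 71 and 69. In replicate 2 only, Cdk8, the kinase of the Mediator complex, led with 138, followed by Cmss1 with 121 and Efl1 with 114. Cdk8 and Cmss1 had CpG island letters with a GC content of 60.3% and 65%. The share of 31-base words found more than once was 24.9% for Cdk8, 76.6% for Cmss1 and 52.2% for Efl1, whose window was also an internal repeat, and 0% for the 3 leaders of replicate 1. The ranges of single-replicate and shared regions overlapped in both lists.

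Intronic regions were richer in G and C than the eligible intron sequence of the genome. The median GC content of the 300-bp windows was 50.3% (quartiles 46.3 and 54.7%), against 42.0% (37.0 and 47.0%) in all 2438259 windows of the same length that met the same intron, TSS and masking rules. Of the intronic regions 90.2% lay above the window median, and 45.9% lay above 51.0%, which 10% of windows exceed. By replicate the median was 51.7% and 50.3%, a mean of 51.0% ± 0.943 (SD, n = 2), so the distance from the windows was larger than that between replicates. Intergenic regions had 51.0% and promoter regions 63.0%, so the intronic regions stood close to the former.

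**Figure D3:**
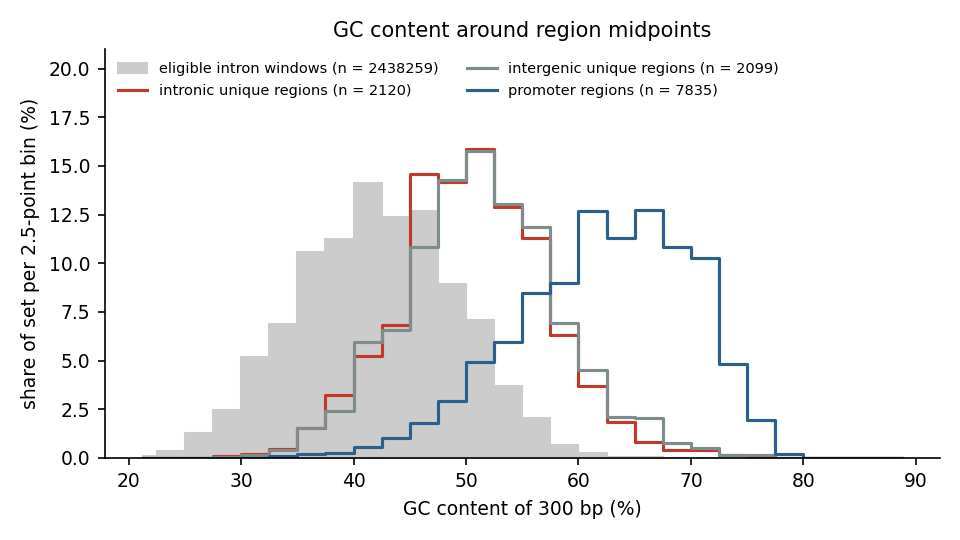
Distribution of GC content in 300 bp around the midpoint, as a share of each set per bin, for eligible intron windows (grey area), intronic regions in unique sequence, intergenic regions in unique sequence and promoter regions. Intronic and intergenic regions run close together around medians of 50.3% and 51.0%, between the windows at 42.0% and the promoter regions at 63.0%.

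CpG island letters, a GC content over 50% with an observed to expected CpG ratio over 0.6 in the window, were held by 83 intronic regions, 3.92% (3.17 to 4.83%). Eligible intron windows held them in 0.134%, intergenic regions in 7.29% and promoter regions in 65.9%. The difference of intronic minus intergenic regions was -3.37 points (-4.78 to -1.99). A typical intronic region held 4 CpG in 300 bp and a typical promoter region 21. Regions with island letters were covered in both replicates more often than the rest, with 22 of 83, 26.5%, against 7.02%, a difference of 19.5 points (11.1 to 29.9).

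RefSeq start sites, which the selection did not use, lay within 2 kb of 103 intronic regions, 4.86%, counting predicted transcripts, and curated RefSeq start sites lay near 13. Of the 103, 15.5% (9.79 to 23.8%) were covered in both, against 7.39% (6.32 to 8.61%) of the others. Among regions with CpG island letters, 16 of 83, 19.3%, had such a site. The 103 are counted among the intronic regions in all other values.

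The place within the gene was read next. A first intron of at least 1 transcript held 911 regions, 43.0% (40.9 to 45.1%), and 40.7% of eligible windows, just under the interval. With a first intron of every transcript that holds the midpoint, the shares were 24.4% (22.7 to 26.3%) and 23.4%. Regions in a first intron were covered in both in 9.11%, others in 6.78%, a difference of 2.33 points (0.0214 to 4.74). The distance to the nearest TSS had a median of 10895 bp (quartiles 5584 and 22836 bp), against 15275 bp for eligible windows. Regions over 20 kb from a TSS were covered in both in 7.22%, the rest in 8.02%, with an interval of the difference of -3.11 to 1.84 points.

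Values close to the limits of the selection are given as a description. The 172 intronic regions at 2 to 3 kb from a TSS were covered in both in 8.72%, and 248 otherwise eligible regions at 1 to 2 kb in 9.68%. The 100 regions with 40 to 50% of bases soft-masked were covered in both in 4.0%, and 107 regions with 50 to 60% in 9.35%.

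Motif letters were counted in the same windows, since introns hold both promoter-type and enhancer-type motifs. A GC box, the letters of SP and KLF factors, was present in 13.8% (12.4 to 15.4%) of intronic regions, 2.61% of eligible intron windows and 55.9% of promoter regions. The core of the CTCF motif (CAGNNGGCG) was present in 4.15%, 0.731% and 13.1%. The ETS letters (CCGGAAG) were present in 3.02%, 0.802% and 12.3%, and the NRF1 letters (GCGCATGC) in 0.896%, 0.297% and 3.36%. For these 4 motifs the intronic regions stood between the windows and the promoter regions. Intergenic regions in unique sequence did so too, with 17.4% for the GC box, 4.48% for the CTCF core, 4.43% for the ETS letters and 0.858% for the NRF1 letters. Intronic minus intergenic shares differed by -3.62 points (-5.81 to -1.43) for the GC box, -1.41 points (-2.58 to -0.268) for ETS and -3.16 points (-5.96 to -0.351) for CCAAT, and for the other 15 of the 18 motifs the interval held 0.

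GC-rich letters follow GC content, so the count was repeated in windows of 45 to 55% GC, which held 1256 intronic regions and 800177 eligible windows. The band matched GC content only roughly, since eligible windows fell from 41735 at 45% to 8861 at 55%. CpG content was not matched, and what remains of GC or CpG differences within the band was not tested. The GC box was then present in 10.7% (9.15 to 12.6%) of intronic regions and 4.62% of windows, the CTCF core in 3.34% (2.48 to 4.49%) and 1.29%, and the ETS letters in 2.79% (2.01 to 3.85%) and 1.36%. The octamer of OCT4 was present in 3.11% (2.28 to 4.22%) of intronic regions and 1.22% of windows in this band. Over all GC contents its shares were 2.5% (1.92 to 3.26%) and 2.16%, and promoter regions held it in 0.970% and intergenic regions in 2.72%. The AP-1 letters (TGANTCA) were present in 12.5% (10.8 to 14.4%) and 9.31% in the band, and over all GC contents in 10.9% (9.68 to 12.3%) and 9.84%, with an interval that held the window share. The NRF1 letters, at 1.04% (0.606 to 1.76%) and 0.496%, were the sixth motif whose interval lay above the windows.

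The remaining 12 motifs had intervals in this band that held the window share. For 3 of them the interval lay above the windows over all GC contents, with KLF at 4.29% (3.51 to 5.24%) against 1.79%, E-box at 5.19% (4.32 to 6.22%) against 3.29% and E2F at 0.613% (0.359 to 1.05%) against 0.188%. For 2 it lay below them, with CCAAT at 30.2% (28.3 to 32.2%) against 36.8% and SOX at 4.91% (4.07 to 5.91%) against 5.91%, the latter by less than the rounding. Within the band, SOX (CATTGTT) was present in 5.02% against 4.03%, KLF (GGGTGTGG) in 3.66% against 2.95%, E-box (CACGTG) in 5.10% against 4.84%, ESRRB (TCAAGGTCA) in 1.04% against 0.859% and STAT (TTCCNGGAA) in 1.11% against 0.928%. CCAAT was present in 30.7% against 33.0%, TEAD (CATTCCA) in 6.21% against 5.45% and YY1 (AAGATGGC) in 2.07% against 2.13%. E2F (TTCCCGCC) and REST (TTCAGCACC) were each present in 0.478%, against 0.324% and 0.368%, and CRE (TGACGTCA) in 0.159% against 0.241%. ZBTB33 (TCTCGCGA) was in 0 of 2120 intronic regions, which allows a share of up to 0.142% by 3 counts of the total or 0.181% by the Wilson limit. Eligible windows held it in 0.0110%, which is below both limits, and promoter regions in 1.43%. No motif holds another within its letters, and matches of different motifs may overlap in a window. A match is a run of letters and not a measured site.

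Coverage in both replicates was compared between regions with and without each of 13 motifs, and the difference was above 0 for 8 and below 0 for 5. With the octamer, 8 of 53 regions were covered in both, 15.1%, against 7.60% of the rest, a difference of 7.50 points (0.154 to 19.5). With a GC box, 29 of 293 were, 9.90%, against 7.44%, a difference of 2.45 points (-0.738 to 6.56). With the TEAD letters the share was 3.36% against 8.05%, a difference of -4.68 points (-7.10 to 0.402), and with the ESRRB letters 0 of 20 regions were covered in both. The octamer difference was the 1 of the 13 whose interval did not hold 0, rests on 8 regions, and carries no adjustment for the 13.

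**Figure D4:**
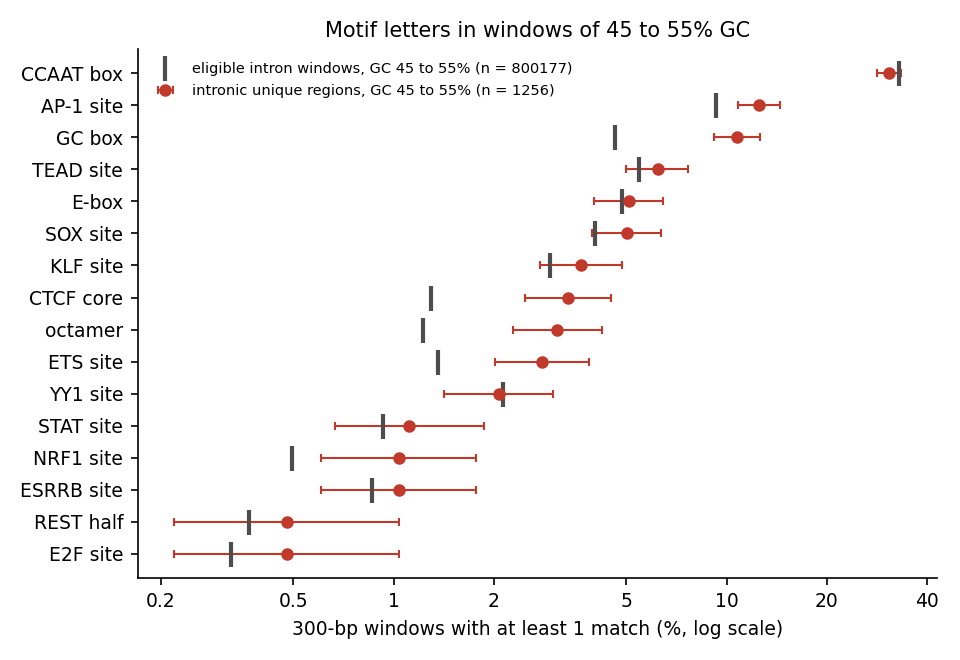
Share of 300-bp windows with at least 1 match of a motif (x axis, log scale) among windows of 45 to 55% GC, for the 16 motifs with at least 5 matching intronic regions in the band. Points are intronic regions in unique sequence with 95% Wilson intervals and ticks are all eligible intron windows. The GC box, CTCF, octamer, ETS, NRF1 and AP-1 intervals lie above their ticks.

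The genes that held the intronic regions were long. Of the 2120 regions, 1885 lay in at least 1 protein-coding gene, 235 only in genes of other types and 112 in more than 1 gene, so that a host is not always a single gene. The midpoint decided the place, and 148 regions, 6.98%, touched an exon with an edge. The 1531 protein-coding hosts were 6.98% of 21938 genes, and 138 of them, 0.629% of all, hosted a region covered in both. The median length was 96719 bp for hosts and 17425 bp for all protein-coding genes. The share of genes that hosted a region went from 0.309% under 10 kb to 11.2% at 30 to 100 kb and 44.4% at 300 kb or more.

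**Figure D5:**
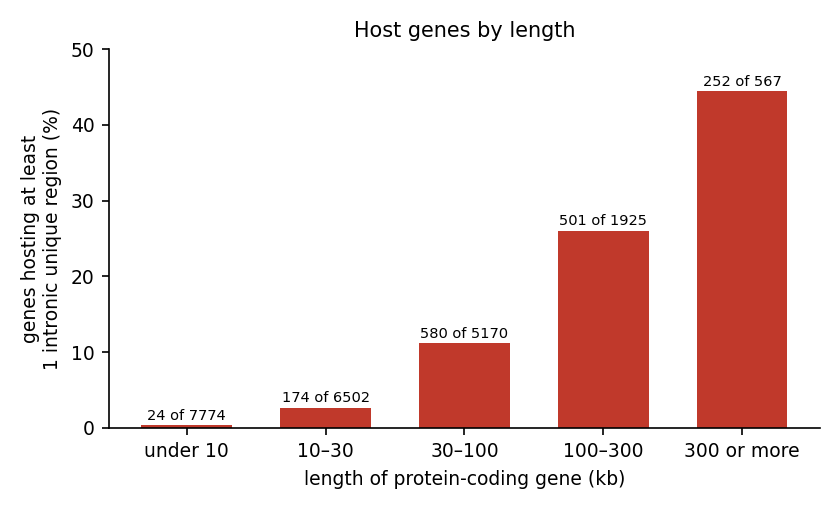
Share of protein-coding genes with at least 1 intronic region in unique sequence (y axis) by gene length (x axis), with the numbers of genes above the bars. The share is 0.309% in genes under 10 kb and 44.4% in genes of 300 kb or more.

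A promoter region, here a region that reached into the 1000 bp before or the 500 bp after a TSS, was present in 754 of the 1531 hosts, 49.2% (46.7 to 51.8%), against 34.0% of all protein-coding genes. Among genes within the quartiles of host length, 54.0% (50.4 to 57.5%) of hosts and 47.7% (46.1 to 49.4%) of genes without an intronic region had one. With replicate 1 alone the shares were 25% (22.0 to 28.2%) and 23.6% (22.3 to 25%), with intervals that overlap. With replicate 2 alone they were 49% (45.5 to 52.6%) and 42.5% (40.9 to 44.2%). For promoter regions covered in both they were 18.7% (16.1 to 21.6%) and 17.6% (16.4 to 18.9%).

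Most hosts held 1 region. Among protein-coding hosts, 1259 held 1, 251 held 2 or 3, and 21 held 4 or more. The nearest other intronic region lay at a median of 207384 bp, and 102 regions, 4.81%, had another within 10 kb. Gm20388, a gene model of 4434882 bp that spans other genes, held 29, of which 2 were covered in both. Gse1, a gene within that span, held 6. Cdk19, a Mediator kinase, Msi2, an RNA-binding protein of stem cells, Nav2, a neuron navigator protein, Sox5, an SRY-box factor, Arhgap26, a GTPase activator that the annotation lists under more than 1 identifier, and the noncoding Gm26573 held 5 each. Of these 6 genes, only Gm26573 hosted regions covered in both, 2 of its 5. Of 22 genes of any type with 4 or more regions, 9 lay on chromosome 8, which held 195 intronic regions, or 4.96 per eligible Mb. Gm20388 and Gse1, which lies within it, are both among the 9. The other chromosomes together held 2.78 per eligible Mb, and chromosome X held 0.887. In replicate 1 chromosome 8 held 1.86 and the others 0.868, and in replicate 2 they held 3.64 and 2.12. Densities by chromosome are not given here for other classes of region, so the difference is not shown to be particular to intronic regions.

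Gene groups were then read against the 6.98% of all protein-coding genes with an intronic region. Of 30 pluripotency and LIF pathway genes, 7 hosted a region, 23.3% (11.8 to 40.9%), with a median gene length of 16244 bp. All 7 were hosts in replicate 2 and 1 was in replicate 1, while of all protein-coding genes 1203 and 561 were. Nanog, a core factor of pluripotency, had a region at chr6:122712892-122713376 with a score of 53 in replicate 2 and no peak in replicate 1. Its midpoint lay in an intron of 426 bp, shorter than the region itself, so the region also reached into an exon. Esrrb, a nuclear receptor of naive stem cells, had a score of 33 in replicate 2 only. Lifr, the LIF receptor, held 4 regions within its 106876 bp, with scores of 39, 20, 16 and 14, all in replicate 2 only. Tcf7l1, the Wnt pathway repressor, was the 1 gene of this group with a region covered in both, with scores of 37 and 53 at chr6:72677601-72678478.

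Among chromatin genes, the SRCAP complex and H2A.Z group had 1 host of 12, H2afv, a gene of H2A.Z itself, with a score of 35 in replicate 2 only. The EP400-TIP60 group had 1 of 12, Trrap, its large scaffold subunit, with 21 in replicate 2 only. The BAF, NuRD and INO80 group had 4 of 36, 11.1% (4.41 to 25.3%), with a median gene length of 32414 bp, namely Arid1b with 3 regions, 1 of them covered in both, and Arid2, Ino80 and Ino80d with scores of 14, 40 and 14 in replicate 2 only. The Polycomb and Trithorax group had 1 of 36, Setd1b, a histone H3K4 methyltransferase, with scores of 69 and 33 at chr5:123149779-123150231. The DNA methylation group had 4 of 15, 26.7% (10.9 to 52.0%), all in replicate 2 only, with a median gene length of 52680 bp. Of all protein-coding genes of 30 to 100 kb, 11.2% hosted a region, which lies within this interval. There Zbtb38, a protein that binds methylated CpG, scored 96, Dnmt1, the maintenance methyltransferase, 50 and 13 in 2 regions, and Tet1 and Tet2, which oxidise methylcytosine, 30 and 29. Tet1 and Tet2 also belong to the pluripotency group.

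Of 50 Wnt, FGF, BMP and Nodal genes, 4 hosted a region, 8.0% (3.15 to 18.8%), with a median gene length of 41169 bp. Bmpr1b, a BMP type I receptor, was covered in both with scores of 49 and 44 at chr3:141849040-141849618, as was Tcf7l1. Tcf7l2 had 18 in replicate 1 only, and Fgfr2 had 3 regions in replicate 2 only with scores of 35, 31 and 22. Each of the 3 lay in an intron of 2908817 bp, which makes up most of a gene model of 2960900 bp. The place of Fgfr2 among the 4 hosts therefore rests on that long model. Of 48 lineage-specifying factors 3 were hosts, 6.25% (2.15 to 16.8%), with a median gene length of 7502 bp and scores of 43 for Meis1, 33 for Pax3 and 31 for Cdx1, all in replicate 2 only.

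Neuronal adhesion and long synaptic genes had the highest share of the 9 groups, 25 of 50, 50.0% (36.6 to 63.4%). Their median length was 820271 bp, and 44.4% of all protein-coding genes of 300 kb or more hosted a region. Magi1, described above, hosted a region covered in both. Of these 50 genes, 6 hosted a replicate 1 region and 23 a replicate 2 region.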

How the data were processed

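SRCAP-YPet was measured by CUT&Tag in 2 replicates of SYAT mESC. The authors deposited, per sample, the peaks that MACS2 called in it separately, with positions in mm10 and a whole-number score, read here as 10 times the −log10 q-value. The submitters' processing notes also name STAR, Picard and the dm6 genome of the Drosophila spike-in. The study's methods, in a section on ChIP-seq and CUT&Tag together, state unique alignments, removal of duplicates and spike-in downsampling. For ChIP-seq the study also states an input control. That section also states removal of reads outside the nuclear chromosomes, yet both lists held mitochondrial peaks. Which of the steps these 2 lists had is therefore not certain. A q-value depends on depth, which is unknown, so scores were ranked only within a list.

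Peaks were merged if they overlapped by at least 1 bp. Genes came from GENCODE mouse release 21, and sequence and soft-masking from the RefSeq copy of GRCm38.p6, the same assembly as mm10, whose masking may differ from that of other mm10 files. GC content, CpG and motif letters were read in 300 bp around the midpoint. Eligible windows tile the genome every 300 bp and meet the rules of the intronic regions. Shares carry 95% Wilson intervals and differences Newcombe intervals, for counting error only. No test across regions was run and no p-value is given. The code was tested on simulated data (Python 3.11.15, numpy 2.4.6, pandas 2.3.3).

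The selection of regions, the 9 gene lists and the 18 motifs were chosen with earlier results of these data known. Genes named by rule were those of the 20 regions covered in both with the best worst rank, list genes with a region covered in both, and the genes with the most regions. Printed windows came from the first 2 of these. Other list hosts, the strongest single-replicate regions, the internal-repeat measure, the GC band and the motif comparison with intergenic regions were chosen after their values were seen. Alternatives covered the TSS distance, masking, transcript types, exon rule, score, list length, merging, windows, overlap and each replicate alone. Some list genes are not reported here.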

Additional observations from a re-analysis of the deposited data

How the results depend on the processing

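Each of the summary values was recomputed with 1 choice changed at a time, and 101 of 131 recomputed values stayed within the replicate spread, the counting interval or 1.5 times the count. The 2120 intronic regions became 217 with a score of at least 50 and 987 with lists of equal length. The share covered in both moved to 10.3% with lists of equal length and to 5.90% when 50% of each peak had to overlap. The mean of the replicates' median scores, 24, became 63 with a score of at least 50 and 35 with lists of equal length, and the median width, 302 bp, became 364 and 327 bp. The median GC content moved to 51.3% with under 25% soft-masked, 53.0% with a score of at least 50 and 51.7% with lists of equal length. The share with CpG island letters became 6.45% with a score of at least 50, 5.17% with lists of equal length and 2.74% in 500-bp windows. The first-intron share became 40.6% at over 5 kb from a TSS, 32.9% with protein-coding transcripts only, 48.4% with a score of at least 50 and 24.4% with a first intron of every transcript. The share of hosts with a promoter region became 52.2% with protein-coding transcripts only, 19.9% with a score of at least 50 and 38.2% with lists of equal length. The 47 list genes that hosted a region became 10 and 21 with the latter settings, and the share of regions without repeated 31-base words became 87.2% with under 25% soft-masked. Ranking by width kept 4 of the 20 strongest regions. Fewer peaks enter with a score of at least 50 or lists of equal length, and the other causes were not tested.

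With 1 replicate left out, the number of intronic regions ranged from 679 to 1616, the median GC content from 50.3% to 51.3%, the hosts with a promoter region from 24.1% to 45.3% and the list genes from 12 to 44. Of 18 motifs, 7 (GC box, CTCF, ETS, NRF1, KLF, E-box and E2F) had an interval above the windows over all GC contents, and this number ranged from 5 to 8 over the alternatives. The GC box share became 25.3% with a score of at least 50. Without internal repeats, or with RefSeq start sites also kept 2 kb away, both chosen after seeing the data, no summary value left its range. The word count was not rerun where regions were merged anew. No paired analysis was possible because there was 1 group. Depth, which is unknown, limits what a missing peak can show.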
